A study of Oryza sativa with 2 samples.

Results

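The germin-like cluster of rice chromosome 8 is a run of tandem genes from LOC_Os08g08960 to LOC_Os08g09080. Its 10 members were picked by locus identifier from a table of 57446 genes, and all 10 are listed there. The run was selected on values of the same contrast of lf2 with XD1B, in which LOC_Os08g08970 had stood out, so the differences between the libraries below are descriptions and were not tested.

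Young panicles shorter than 2 cm, the immature flower-bearing heads of rice, were profiled by RNA sequencing of total RNA. The series holds 1 library of the line XD1B, labelled wild type, and 1 library of lf2, labelled LF2 mutant, whose gene LATERAL FLORET 2 is named in the series title as coding for a chromatin remodeller of the SNF2 type. The lesion in lf2, the line it arose in, and the number of panicles or plants pooled are stated neither in the labels nor in the file. A difference between these libraries therefore has no replicate check, and genotype, growing conditions, collection and library cannot be told apart.

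Germins and germin-like proteins are secreted glycoproteins with a cupin fold, a barrel of beta strands that binds a metal ion in the cell wall. Germins of cereals have oxalate oxidase activity and germin-like proteins often have superoxide dismutase activity, and both activities release hydrogen peroxide. In rice, the germin-like genes clustered on chromosome 8 are known for their part in resistance to blast and sheath blight fungi. In grasses and other plants, members of the family respond to infection and wounding.

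The label was compared with the RefSeq gene table of assembly ASM3414082v1, which uses other identifiers and matched 0 of the 10 loci. On chromosome 8 that table holds 7 genes with a germin synonym, of which 6 lie within 10% of the cluster's start in gene order. GER1, GER2, GER3 and GER6 are among their synonyms. From the first to the last of these 6, GER3 to GLP2, is a run of 10 protein-coding genes. The 10% limit set the ends of that run, so its size is not read as a match to the 10 members. By locus number the cluster spans 12 loci. The run lies at 22.9% to 23.4% of the chromosome's protein-coding gene order, and the cluster at 18.3% to 18.6% of the order of all listed loci, which counts a different set of genes. No single RefSeq gene was assigned to a locus, so the members are named by locus only. Functions of single members are likewise not given in the files.

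Levels are in FPKM, fragments scaled by gene length and by the fragment total of the library, as deposited by the authors. The values are exact multiples of whole fragments, which gave totals of 29111345 fragments for XD1B and 27373727 for lf2. Fragment numbers per gene and the 95% intervals made from them cover counting error only, and each number is a lower bound where fragments and length share a common factor. Of the panicle markers OSH1, MADS1, MADS6 and DL, 4 of 4 were above FPKM 1 in both libraries. All 4 were lower in lf2, with summed levels of 399.8 FPKM in XD1B and 172.6 in lf2. On log2(FPKM + 1), 3 of the 4 were at least 2-fold lower and OSH1 was not. Among the 22150 genes at FPKM 1 or more in either library, 8.23% were at least 2-fold lower. The median log2 ratio over those genes was -0.31, so lower values in lf2 were common. The anther genes EAT1, TDR and C6 were below FPKM 1 in both libraries, with sums of 0.806 and 0.653 and C6 listed at 0 in lf2. The leaf genes RCA and CAB1R summed to 57.8 FPKM in XD1B and 23.8 in lf2, and both were at least 2-fold lower by the same rule. Whether tissue make-up had a part in the cluster's levels was not tested, and with bulk panicles a different number of cells of a type cannot be told apart from a different RNA level per cell.

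Most of the cluster was near 0 in XD1B, where 2 of its members reached FPKM 1. The higher of these, LOC_Os08g09000, ranked number 12331 there, among 29348 genes above 0. The cluster was strongly represented in lf2. Its 10 members summed to 10.2 FPKM in XD1B and 2694 FPKM in lf2, a ratio of 265. They held 288 of all fragments in XD1B, which is 0.000989% (exact Clopper-Pearson interval 0.000878% to 0.00111%). In lf2 they held 69478 fragments, which is 0.254% (0.252% to 0.256%). The sum in lf2 is mostly a single gene, since without LOC_Os08g08970 the levels were 10.2 and 379.9 FPKM, a ratio of 37.3. Without LOC_Os08g09010 as well, the other 8 members summed to 9.09 FPKM in XD1B and 146.5 in lf2, a ratio of 16.1.

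**Figure D1:**
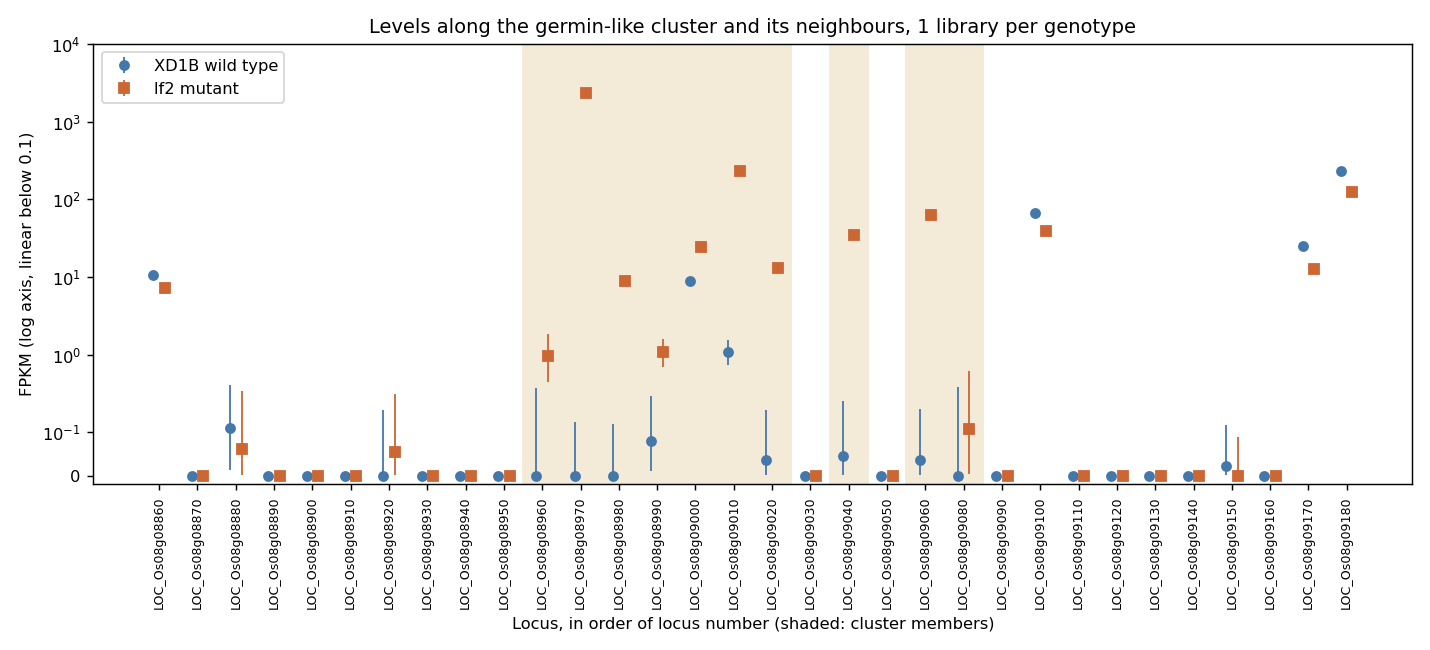
FPKM of each locus in XD1B (circles) and lf2 (squares), on a log axis that is linear below 0.1, for the cluster (shaded), the 2 loci between its members and 10 listed loci on each side. Points are single libraries and bars are exact 95% Poisson intervals of the fragment numbers; the members reach 2314 FPKM in lf2, while most neighbours are at 0 in both libraries.

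All 10 members had a higher value in lf2 than in XD1B. FPKM of at least 1 was reached by 8 members in lf2 and by 2 in XD1B. By the size rule, a log2 ratio of at least 1 computed as log2((lf2 FPKM + 1)/(XD1B FPKM + 1)), 7 of the 10 members counted as 2-fold higher, and 0 counted as 2-fold lower by the reverse rule. The background was 15.3% higher and 8.23% lower among the 22150 genes that reached FPKM 1 in at least 1 library, a minimum that 8 of the members met. The rule for members used this contrast, so nothing is read from the difference between these shares. Over all 10 members the median log2 ratio was 3.55, with a range of 0.15 to 11.18. Over the 8 members that met the minimum it was 4.45, beside a median of -0.31 over the 22150 genes. Most members passed the minimum through their lf2 value alone, so their median is a description too.

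Rescaling lf2 to a median ratio of 1 multiplied its values by 1.32 and moved the median of all genes by 0.36 on the log2 scale. It turned the split over all genes from 3395 higher and 1822 lower into 4410 higher and 389 lower. Under that rescaling 9 members counted as higher and 0 as lower. The 0 was fixed beforehand, because the rescaling raised lf2 values that were already above those of XD1B.

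LOC_Os08g08970, the second gene of the run, had the highest level of the cluster in lf2. It was listed at 0 FPKM in XD1B and at 2314 FPKM in lf2 (2295 to 2333), from 0 and 59541 fragments. Against a floor of 3 fragments in XD1B, it was at least 21107-fold higher in lf2 as listed, and 20938-fold at the lower limit of its lf2 interval. With 0 fragments, XD1B allows a level of up to 0.110 FPKM at this floor. In lf2 it ranked number 8 among all 57446 genes and made up 85.9% of the cluster's summed FPKM. Of the genes listed at 0 in XD1B, 510 reached FPKM 1 in lf2, 20 reached 100 and 1 reached 1000, and that 1 is LOC_Os08g08970. These cut-offs were set after its values were seen.

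LOC_Os08g09010 followed it in level in lf2. It stood at 1.08 FPKM in XD1B (0.735 to 1.54), from 31 fragments, and at 233 FPKM in lf2 (228 to 239), from 6294 fragments. The ratio of lf2 to XD1B was 216 (152 to 318), the most precisely counted of the ratios above 100 in this cluster. It ranked number 362 among all genes in lf2.

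The 4 genes with a single fragment or a pair of them in XD1B differ widely in lf2. LOC_Os08g09060 stood at 0.0359 FPKM in XD1B, from 1 fragment, and at 62.3 FPKM in lf2, a ratio of 1735 (311 to 68552). LOC_Os08g09040, the member before it, stood at 0.0456 FPKM in XD1B, again from 1 fragment, and at 35.3 FPKM in lf2, a ratio of 773 (138 to 30579). Both lie towards the far end of the run, and the intervals of their ratios overlap.

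LOC_Os08g09020 stood at 0.0352 FPKM in XD1B, from 1 fragment, and at 13.2 FPKM in lf2, a ratio of 376.5 (67.1 to 14911). LOC_Os08g08990 was a low gene in both libraries, at 0.0808 FPKM in XD1B from 2 fragments and 1.07 FPKM in lf2 from 25. Its ratio was 13.3 (3.32 to 116), but on the log2(FPKM + 1) scale it came to 0.94 and missed the 2-fold rule. The pseudocount of 1 understates the difference of such low genes.

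LOC_Os08g09000 was the exception at the XD1B side. It was the highest member there, at 8.90 FPKM (7.83 to 10.07) from 252 fragments, and stood at 24.6 FPKM in lf2 (22.8 to 26.6) from 656. Its ratio of 2.77 (2.39 to 3.21) was the lowest among the members with a fragment in both libraries, and its interval overlaps that of no other ratio. It is thus the member with the most XD1B signal and, among these, the smallest relative difference.

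The other members listed at 0 in XD1B were lower in lf2 than LOC_Os08g08970. LOC_Os08g08980, next to it, was at 8.92 FPKM in lf2 (7.83 to 10.1) from 240 fragments. That is 85.1-fold above the floor of 3 fragments as listed and 74.7-fold at its lower limit. LOC_Os08g08960, the first gene of the run, was at 0.976 FPKM in lf2 (0.446 to 1.85) from 9 fragments, 3.19-fold above the floor as listed and 1.46-fold above it at the lower limit of its interval. The last gene, LOC_Os08g09080, had 1 fragment in lf2 and 0 in XD1B, so no ratio is given and a difference was not detectable at this depth. The lengths fitted to LOC_Os08g08960 and LOC_Os08g09080, 337 and 328 bases, were the shortest of the cluster. Their fragment numbers are lower bounds and may be underestimates.

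**Figure D2:**
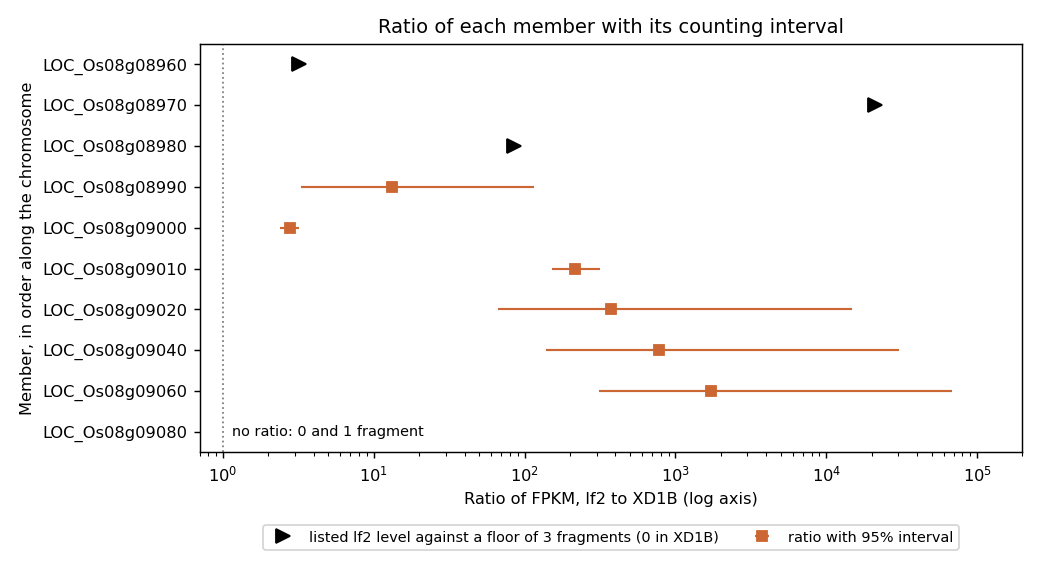
Ratio of FPKM in lf2 to XD1B for each member on a log axis, in order along the chromosome. Squares are ratios with exact 95% Clopper-Pearson intervals and triangles set the listed lf2 level against a floor of 3 fragments for members with 0 fragments in XD1B; ratios span 2.77 at LOC_Os08g09000 to at least 21107 at LOC_Os08g08970, and intervals are wide where XD1B has 1 or 2 fragments.

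The levels in lf2 did not run evenly along the chromosome. LOC_Os08g08970 stood 2372-fold above LOC_Os08g08960 on its left, which had 9 recovered fragments, and 259-fold above LOC_Os08g08980 on its right. LOC_Os08g09010 stood 9.48-fold above LOC_Os08g09000 and 17.6-fold above LOC_Os08g09020. LOC_Os08g09060 stood 559-fold above LOC_Os08g09080, whose lf2 level of 0.111 FPKM (0.00282 to 0.6205) rests on 1 recovered fragment. The size of that step is therefore uncertain. The levels had 3 local maxima along the run, at LOC_Os08g08970, LOC_Os08g09010 and LOC_Os08g09060.

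Ranked by FPKM in lf2, the members ran LOC_Os08g08970, LOC_Os08g09010, LOC_Os08g09060, LOC_Os08g09040, LOC_Os08g09000, LOC_Os08g09020, LOC_Os08g08980, LOC_Os08g08990, LOC_Os08g08960 and LOC_Os08g09080. The Poisson intervals of neighbours in this order did not overlap down to LOC_Os08g08990, and those of the last 3 genes overlapped from each to the next. In XD1B the order was led by LOC_Os08g09000, which stood 8.23-fold above LOC_Os08g09010. The intervals of the lower members there, LOC_Os08g08990, LOC_Os08g09040, LOC_Os08g09060 and LOC_Os08g09020, overlapped from each to the next.

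The make-up of the cluster's signal differed between the libraries. In XD1B, LOC_Os08g09000 gave 87.4% of the summed FPKM and LOC_Os08g09010 gave 10.6%. In lf2, LOC_Os08g09000 gave 0.914%, LOC_Os08g09010 gave 8.67%, LOC_Os08g09060 gave 2.31% and LOC_Os08g09040 gave 1.31%. The share of LOC_Os08g09010 was thus similar in both, while the leading gene was a different locus.

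**Figure D3:**
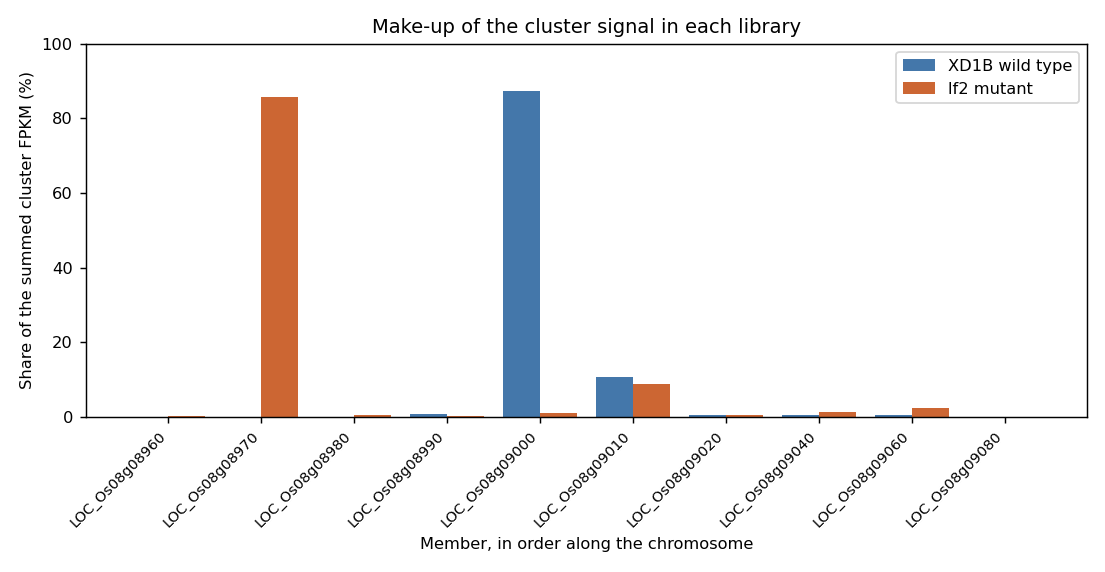
Share of the summed cluster FPKM, in percent, held by each member in XD1B and in lf2, 1 library each. LOC_Os08g09000 holds 87.4% in XD1B and LOC_Os08g08970 holds 85.9% in lf2.

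Tandem copies can share sequence, and how the authors placed fragments that match several copies is stated neither in the labels nor in the file. Levels of single members are therefore uncertain to that extent. In XD1B, the 252 fragments of LOC_Os08g09000 stood beside 31 at LOC_Os08g09010 and 0 to 2 at each of the other 8 members. In lf2, fragments at the other members ranged from 0.00168% of those at LOC_Os08g08970, at LOC_Os08g09080, to 10.6%, at LOC_Os08g09010. Whether misplaced fragments of LOC_Os08g08970 contribute to the lower members in lf2 was not tested.

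Within 10 loci on each side, the 4 measured neighbours of the cluster did not share its pattern of values. Loci at 0 in both libraries give no comparison. The listed loci that lie between members, LOC_Os08g09030 and LOC_Os08g09050, were at 0 in both libraries. Of 20 flanking loci, 10 on each side, 13 were at 0 in both libraries and 3 more were under FPKM 1 in both. The remaining 4, of which 1 lies before the run and 3 after it, were all lower in lf2. Their log2 ratios ran from -0.92 to -0.51, beside a median of -0.31 over all measured genes. Of these 4, 0 passed the 2-fold rule in either direction, beside 15.3% higher and 8.23% lower over all measured genes. The nearest of these, LOC_Os08g09100, lies shortly beyond the run and had 67.2 FPKM in XD1B against 39.6 in lf2, a ratio of 0.589 (0.552 to 0.629). The highest, LOC_Os08g09180, had 229.6 FPKM in XD1B against 124.5 in lf2, a ratio of 0.542 (0.515 to 0.571). With 20 loci on each side, 15 were measured, of which 1 was higher and 1 lower by the 2-fold rule. The higher was LOC_Os08g09240, at 83.3 FPKM in XD1B and 313.0 in lf2. Roles of these loci are not given in the files.

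Other loci listed as germin family were mostly low. The list of 33 such loci was written from general knowledge. For 5 of them, a germin gene of the reference table lay within 3% of the gene order of the same chromosome. That gene was LOC4325743 or LOC4334487 in each case, so the 5 loci were not each matched to a gene of their own. Of these 5, 3 were at 0 in both libraries and 0 reached FPKM 1. LOC_Os03g58980 stood at 0.420 FPKM in XD1B and 0.528 in lf2, and LOC_Os01g72290 at 0.317 and 0.429. Over all 33 loci, 13 were at 0 in both libraries, 15 more stayed under FPKM 1 and 5 were measured. By the 2-fold rule 1 of those 5 was higher in lf2 and 0 were lower.

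The gene that was higher is LOC_Os02g32980, named after its values were seen. It stood at 1.43 FPKM in XD1B and 34.9 in lf2, a ratio of 24.3 (18.2 to 33.3). LOC_Os01g18170, the highest of the 33 in both libraries, had 42.1 FPKM in XD1B against 53.7 in lf2, a ratio of 1.27 (1.19 to 1.36). It too was named after its values were seen. LOC_Os08g08920, which lies on chromosome 8 ahead of the run and is outside the member list, had 0 fragments in XD1B and 1 in lf2.

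Among all genes outside the cluster, levels nearest to those of LOC_Os08g08970 in both libraries, by distance over log2(FPKM + 1), were found at LOC_Os01g24710. It stood at 0.299 FPKM in XD1B and 5129 in lf2, a distance of 1.21. LOC_Os08g30510 followed at 0.573 and 1128 FPKM, a distance of 1.23. Its recovered number of 1 fragment in XD1B goes with a fitted length of 60 bases and is a lower bound that may be an underestimate. LOC_Os05g15770 stood at 0.131 and 713 FPKM, a distance of 1.71. This likeness is over 2 libraries only.

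As context for stress, 3 genes were picked with earlier results of these data known. By the 2-fold rule 3 of 3 were higher, beside 15.3% of all measured genes. Because of how they were picked, nothing is read from the difference between these shares. TIFY11A, a repressor of jasmonate signalling that is itself induced by jasmonate, stood at 0.0659 FPKM in XD1B and 57.3 in lf2. TIFY11C, a gene of the same kind, was read at LOC_Os03g08320, a pairing that could not be checked by identifier; that locus stood at 0.0777 FPKM in XD1B and 217 in lf2. HSFA2A, a heat shock factor, stood at 3.64 FPKM in XD1B and 47.3 in lf2. Summed over these 3 genes, the level was 3.78 FPKM in XD1B and 321 in lf2, and without TIFY11C it was 3.70 and 104.6. Their part in the cluster's levels was not tested.

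**Figure D4:**
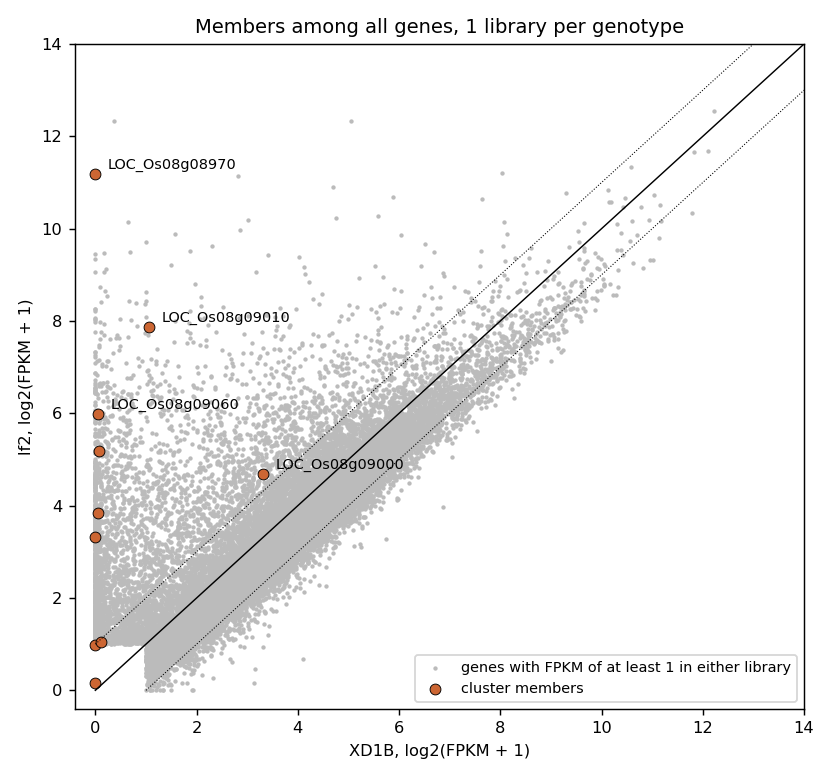
Levels in lf2 against XD1B on log2(FPKM + 1) axes for the 22150 genes that reached FPKM 1 in at least 1 library (grey) and the 10 members (large points); the solid line marks equal levels and the dotted lines a 2-fold difference. LOC_Os08g08970 lies at the left edge, at 0 in XD1B and 2314 FPKM in lf2, and 7 members lie above the upper dotted line.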

How the data were processed

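FPKM per gene was deposited by the authors in a table with 1 column per library, per the file headers and its name. For the aligner, counting tool, strand setting, genome build, annotation and filters, the sources used here give nothing. The members and gene lists were chosen with earlier results of these data known.

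Each FPKM is a whole fragment number divided by a whole gene length and the library total. The total was taken as the largest for which at least 90% of the 400 lowest values gave whole lengths, which 98.25% did in XD1B and 99.75% in lf2. It was refined on the 300 highest values, of which 100% fitted within the table's rounding, against 4.67% and 4.00% at the next best total nearby. Each gene received the shortest length from 50 to 30000 bases that fits both libraries. Recovered fragments sum to 89.7% of the total in XD1B and 89.4% in lf2. The procedure was tested on simulated data.

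The difference was log2((lf2 FPKM + 1)/(XD1B FPKM + 1)), with a minimum of FPKM 1 in either library and a 2-fold rule of size. With 1 library per group no p-value was computed. Ratio intervals are exact 95% Clopper-Pearson intervals; against 0 fragments, a floor of 3 fragments per library gave a bound. The text names all members, the loci between them, up to 4 other checked germin loci by size of log2 ratio, fixed markers, and the 3 loci nearest in level to the highest member. LOC_Os08g09100 and LOC_Os08g09180 were named after their values were seen. Locus numbers were taken to run along the chromosome. Symbols of marker and stress genes were paired with loci from general knowledge, since the reference table holds no such loci. A germin locus counted as checked where a germin gene of that table lay within 3% of the chromosome's gene order. The cluster itself differs by more than that between both orders, so a locus left unchecked may still belong to the family. Alternatives were pseudocounts of 0.1 and 5, minimums of none and 5, other flank widths, and 2 rescalings (lf2 to a median ratio of 1, set on the 13597 genes at FPKM 5 or more in XD1B and in lf2, and each library to a sum of 1000000). Computations used scipy 1.17.1, numpy 2.4.6 and pandas 2.3.3 under Python 3.11.15, and matplotlib 3.10.9 drew the figures.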

Additional observations from a re-analysis of the deposited data

How the results depend on the processing

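No paired analysis was possible because each genotype has 1 library, and no replicate could be left out. The count of members at least 2-fold higher was 7 as reported and 7 to 9 under the pseudocounts, minimums and rescalings run, and 0 were lower under each. With 8 or 9 called, the added members are low genes near FPKM 1. Of 40 member log2 ratios under the pseudocounts and rescalings, 33 moved beyond their counting interval and 0 reversed. A reversal, or a member counted as lower, could not occur. All 10 members were higher in lf2, a pseudocount keeps the sign, and both rescalings raised lf2 relative to XD1B. Over all genes, a pseudocount of 0.1 gave 2978 lower, a pseudocount of 5 gave 2183 higher and 648 lower, and rescaling to a median ratio of 1 gave 389 lower. With 20 loci on each side, 1 flanking locus was higher (LOC_Os08g09240, 83.3 and 313.0 FPKM) and 1 lower (LOC_Os08g09260, 10.9 and 4.58), since more loci enter. With all 33 other germin loci in place of 5, 1 was higher. Dropping members was an alternative added after seeing the data, and the ratio of summed FPKM was 37.3 without LOC_Os08g08970 and 16.1 without LOC_Os08g09010 as well. Depth limits ratios with 0 to 2 fragments in XD1B.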

Other observations

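Levels under FPKM 0.1 in XD1B together with at least 10 in lf2, a cut-off set after the values were seen, were found for 280 of 57446 genes, among them 4 of the 10 cluster members. These 4 are LOC_Os08g08970, LOC_Os08g09020, LOC_Os08g09040 and LOC_Os08g09060. The members were picked on this contrast, and 25096 of the 57446 genes were at 0 in both libraries, so nothing is read from these shares.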
